A study of Mus musculus with 6 samples.

Results

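The 4 libraries of the METTL3 experiment in 3T3-L1 cells carry the numbers 1 and 2 in both of its groups, and the libraries numbered 2 (control 2 and METTL3 knockdown 2) were compared with those numbered 1 (control 1 and METTL3 knockdown 1). 3T3-L1 is a mouse embryo fibroblast line of pre-adipocytes, cells that stop dividing at confluence and turn into fat cells under hormonal induction. METTL3 is the methyltransferase that places N6-methyladenosine on mRNA. The knockdown cells were transiently transfected against METTL3 and the labels do not say what the controls received. The series holds 6 libraries, and the FTO control and the FTO knockdown were not used because no FTO library is numbered 2. Knockdown status was a block in the comparison, so that each library numbered 2 was set against the library numbered 1 of the same status. All genes with a mean CPM (reads of the gene scaled to the library's total) of at least 5 over the 4 libraries were members, 10047 of 37315 gene entries. Prelid2, at a mean of 5.002 CPM, lay just inside that threshold and Slc29a2, at 4.991 CPM, just outside it. All other CPM values are TMM-scaled.

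The labels do not say what the number stands for, such as a separate culture, a day or a passage, and the difference by number may be technical. The model had 1 residual degree of freedom, the difference between the change in the controls and the change in the knockdowns. The p-values set the number effect against that difference, moderated toward the variance of the other genes (median prior degrees of freedom 24.9). Small p-values therefore rest largely on variance borrowed across genes, and they do not measure how far the number effect would repeat in further libraries. Total counts lay between 41773967 and 44580722 reads per library, so that 3 reads, the limit allowed by a count of 0, corresponded to 0.0673 to 0.0718 CPM. Mettl3 stood at 25.4 CPM in control 1, 28.7 in control 2, 7.76 in knockdown 1 and 6.61 in knockdown 2. Both knockdown libraries lay below both controls, as labelled, and the log2 fold change of knockdown over control was -1.91 (SE 0.11, edgeR quasi-likelihood adjusted p = 1.4e-11, and 0.197 without the number as a block). In the number comparison Mettl3 had a log2 fold change of 0.02 (adjusted p = 0.924). Gapdh separated the libraries by status and not by number, with 173 and 148 CPM in controls 1 and 2 against 2093 and 2089 CPM in knockdowns 1 and 2.

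Dividing fibroblasts switch on genes in waves. E2F factors turn on DNA replication genes around the start of S phase, and the DREAM and B-Myb complexes govern mitotic genes through CHR and CCAAT elements close to the transcription start. Cells that leave the cycle at high density typically lower these genes, and in pre-adipocytes confluence precedes differentiation. Interferon-stimulated genes respond to STAT and IRF factors, lysosomal genes to TFEB and TFE3, and smooth muscle actin genes to SRF.

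In each of 5 gene groups of the comparison, the called gene with the highest mean CPM whose promoter holds a motif tied to that group was chosen. Presence of the motif was thus a rule of choice and not a finding. The short promoter sequences of these 5 genes are given below. Each is the 250 bases before the transcription start as annotated by RefSeq on GRCm38.p6, written 5′ to 3′ on the gene's strand, with the motif named for the gene's own group in capitals. Matches to the other motifs searched, such as an E2F match in Mki67 and CCAAT in Mcm5, Stat2 and Actg1, are left in lower case. Mki67 (chr7:135716380-135716629, minus strand), the proliferation antigen Ki-67, holds CCAAT or its complement ATTGG and the CHR element TTTGAA. Mcm5 (chr8:75109259-75109508, plus strand), a subunit of the replicative helicase, holds the E2F motif TTGGCGC, here as its complement. Stat2 (chr10:128270248-128270497, plus strand), a transducer of type I interferon signals, holds an interferon-stimulated response element (ISRE) as its complement. Lamp1 (chr8:13158911-13159160, plus strand), a major lysosomal membrane glycoprotein, holds GTCACGTG as its complement, the E-box of TFEB target genes. Actg1 (chr11:120348496-120348745, minus strand), cytoplasmic gamma-actin, holds a CArG box, the site read by SRF.
Mki67: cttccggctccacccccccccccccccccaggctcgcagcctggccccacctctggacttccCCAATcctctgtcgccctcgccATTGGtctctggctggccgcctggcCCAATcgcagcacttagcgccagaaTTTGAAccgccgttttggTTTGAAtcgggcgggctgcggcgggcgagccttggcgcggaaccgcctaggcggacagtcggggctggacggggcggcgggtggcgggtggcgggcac
Mcm5: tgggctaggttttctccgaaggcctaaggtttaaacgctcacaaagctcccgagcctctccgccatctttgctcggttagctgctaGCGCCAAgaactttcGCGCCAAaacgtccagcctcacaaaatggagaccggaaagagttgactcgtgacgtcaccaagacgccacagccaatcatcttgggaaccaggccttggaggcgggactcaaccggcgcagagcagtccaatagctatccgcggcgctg
Stat2: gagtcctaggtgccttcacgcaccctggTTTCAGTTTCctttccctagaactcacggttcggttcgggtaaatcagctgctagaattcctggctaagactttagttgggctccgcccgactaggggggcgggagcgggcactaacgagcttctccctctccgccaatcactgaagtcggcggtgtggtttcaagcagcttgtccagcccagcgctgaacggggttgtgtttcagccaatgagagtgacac
Lamp1: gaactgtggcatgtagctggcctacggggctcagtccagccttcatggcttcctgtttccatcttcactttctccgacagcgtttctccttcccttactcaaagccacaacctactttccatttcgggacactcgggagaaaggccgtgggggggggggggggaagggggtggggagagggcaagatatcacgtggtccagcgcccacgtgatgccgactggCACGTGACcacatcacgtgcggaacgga
Actg1: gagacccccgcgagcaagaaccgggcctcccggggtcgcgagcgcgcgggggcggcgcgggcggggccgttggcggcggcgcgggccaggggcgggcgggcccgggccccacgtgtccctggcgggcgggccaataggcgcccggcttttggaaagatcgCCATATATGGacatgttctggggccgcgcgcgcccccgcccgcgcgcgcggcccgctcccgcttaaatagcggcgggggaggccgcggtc

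Across the windows from 250 bases before to 50 after the start, TTTGAA on either strand occurred in 75.9% of 29 mitosis and spindle genes with a RefSeq promoter, against 20.2% of all 27025 promoters. CCAAT occurred in 75.9% of the same 29 genes against 41.1% of all promoters, and 2 or more copies in 51.7% against 13.3%. CCAAT was not particular to this list. It occurred in 61.3% of S-phase, 53.3% of contractile and 57.1% of collagen genes with a promoter. The shares with 2 or more copies there were 38.7%, 33.3% and 7.14%. The E2F motif, searched as TTCCCGC or TTGGCGC, was found in 61.3% of 31 S-phase genes against 7.79% of all promoters. The CArG box was found in 33.3% of 15 contractile genes against 1.81% of all promoters. A CCAAT match can overlap an E2F match, whose complement GCGCCAA ends in CCAA. Of the genes tested, 79.4% had a promoter in the table, and among these 7972 the shares were 13.8% for TTTGAA, 43.4% for CCAAT, 17.5% for 2 or more copies of it, 14.8% for E2F and 1.58% for the CArG box. These matches describe the sequence and are not binding sites shown by these data. Fewer than 80% of the interferon, lysosome, sterol and ribosome biogenesis lists had a promoter in the table (68.8%, 79.2%, 70.8% and 77.8%). No share is given for these lists. The genes tested, at 79.4%, lay below 80% as well, and their shares are given only as a background.

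**Figure D1:**
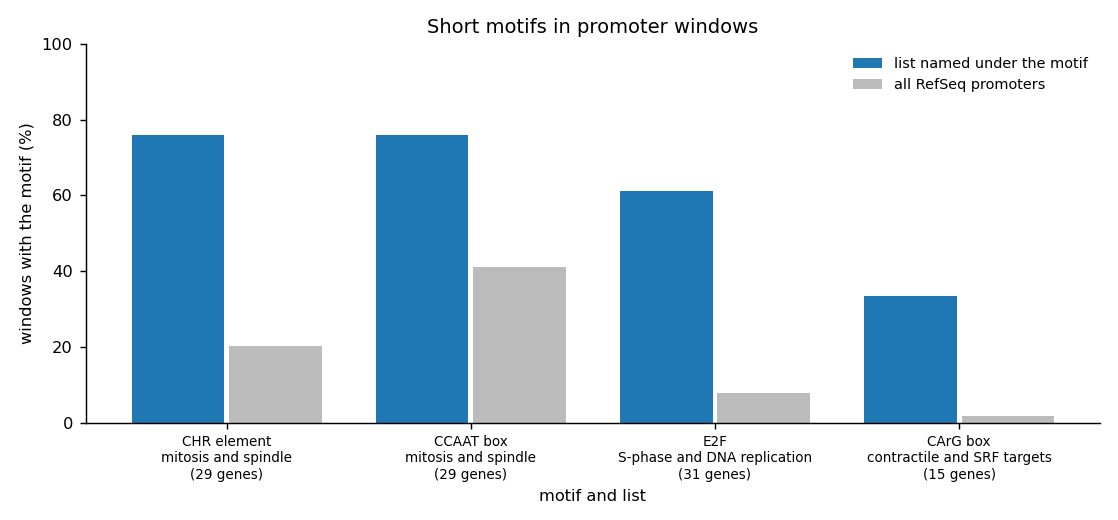
Share of promoter windows (percent, from 250 bases before to 50 after the start) that hold each motif, for the gene list named under the motif (blue) and for all RefSeq promoters (grey). The CHR element stood in 75.9% of the mitosis and spindle genes and in 20.2% of all promoters.

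In the comparison of number 2 with number 1, 3374 of 10047 genes (33.6%) passed an adjusted p of 0.05. Of these, 1629 (16.2%) were higher and 1745 (17.4%) were lower in the libraries numbered 2. These shares are the background for the counts in each gene list below. With library totals in place of TMM scaling, 2223 were higher and 1573 lower, so that 58.6% of the calls were higher, against 48.3% under TMM. DESeq2 with the same model called 729 higher and 996 lower. The status comparison in the same model called 3118 genes (31.0%). The changes by number were mostly small. The median absolute log2 fold change of the called genes was 0.32, and the furthest folds were 4.41 higher and 4.54 lower. In 9 genes (0.0896%) the level, as CPM plus 1, was at least 2-fold higher in both pairs, and in 18 genes (0.179%) at least 2-fold lower in both.

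The change between the controls and the change between the knockdowns come from separate libraries. Across the 10047 genes their Pearson correlation was 0.801 and the Spearman correlation 0.731, as a description, since genes are not independent replicates. At 1.5-fold or more, 292 genes moved the same way in both pairs and 0 moved in opposite ways. Of all genes tested, 75.8% had the same sign in both pairs. None of the 3374 called genes had opposite signs, but the test nearly fixes that in advance. Opposite signs shrink the effect of the number and widen the residual, so such a gene could hardly be called. Of the sum of squares between the 4 libraries over all genes tested, the number took 49.5%, the status 44.98% and the difference between the pairs 5.51%. The SD of the log2 ratio between libraries was 0.272 for the controls and 0.270 for the knockdowns. It was 0.218 between control 1 and knockdown 1 and 0.295 between control 2 and knockdown 2. Both libraries numbered 2 lay above both numbered 1 in 2534 genes (25.2%) and below both in 2342 genes (23.3%). GC content and gene length had Pearson correlations of -0.12 and -0.02 with the log2 fold change. At this sample size (2 libraries against 2) the smallest p that exact permutation of a single value allows is 0.333. No gene passed when the block was left out, or when any library was left out together with the block (0 higher and 0 lower by edgeR in each case). At an unadjusted p of 0.05 the fit without the block called 800 higher and 833 lower. Without the block the status, with 44.98% of the sum of squares, falls into the residual. Leaving out a library also mixes the number with the status. These fits therefore cannot decide whether the calls hold.

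**Figure D2:**
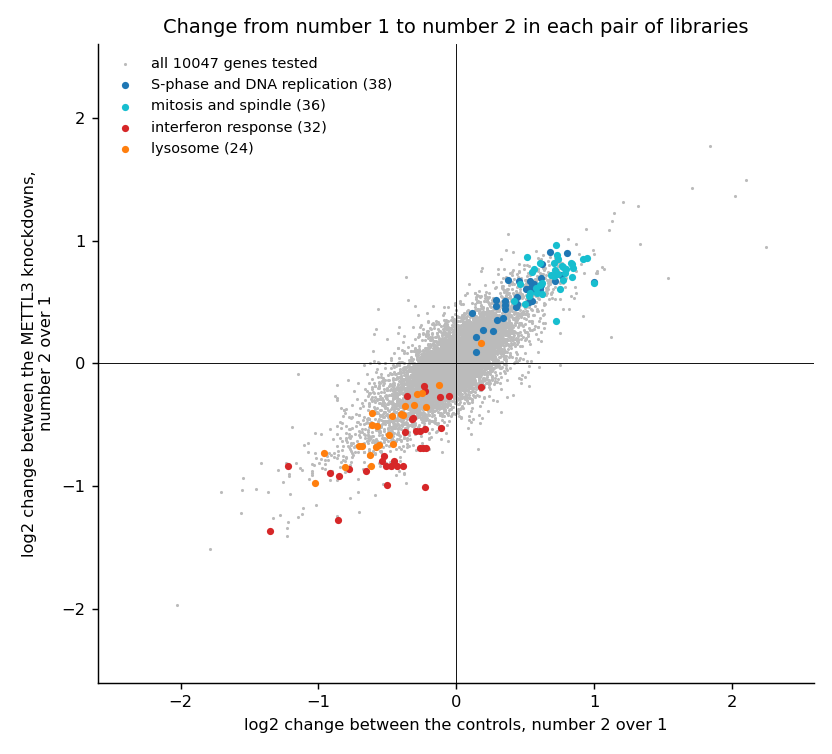
Log2 change, number 2 over number 1, between the controls (horizontal axis) and between the METTL3 knockdowns (vertical axis) for each of 10047 genes, on CPM plus 1. S-phase and mitosis genes sit in the upper right quadrant, and nearly all interferon and lysosome genes in the lower left one.

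Genes of DNA replication and mitosis were higher in the libraries numbered 2 with almost no exception. Of 36 mitosis and spindle genes, 36 were called higher, with a median log2 fold change of 0.74, against a median of 0.01 over all genes tested. Of 38 S-phase genes tested, from a list of 40, 37 were called higher, with a median of 0.57. The median was 0.72 within the controls and 0.73 within the knockdowns for mitosis, and 0.53 and 0.60 for S phase. Relative to each gene's own mean over the libraries, the median mitosis gene stood at -0.49 log2 units in control 1, -0.23 in knockdown 1, 0.20 in control 2 and 0.50 in knockdown 2. The knockdown was thus above the control of the same number, but both libraries numbered 2 stood above both numbered 1.

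Ttk, the spindle checkpoint kinase also called Mps1, had 8.41 CPM in control 1 and 9.30 in knockdown 1 against 16.8 in control 2 and 17.6 in knockdown 2 (log2 fold change 0.96, SE 0.10, adjusted p = 5.2e-08). Kif11, the motor that pushes spindle poles apart, had 19.1 and 24.9 CPM in control 1 and knockdown 1 against 37.9 and 46.1 in control 2 and knockdown 2. In both genes the libraries numbered 2 lay at nearly 2 times the level of those numbered 1, with no overlap. Cyclin A2 (Ccna2) went from 76.9 and 89.3 CPM to 139 and 154 CPM in the same order (log2 fold change 0.82). Its transcribed region overlaps Exosc9 on the other strand, and the kit does not mark strand. Cdk1, the kinase that drives mitosis, was 1.71-fold higher, its partner cyclin B1 (Ccnb1) 1.65-fold and topoisomerase Top2a 1.38-fold. Mki67 had 179 CPM in control 1, 234 in knockdown 1, 253 in control 2 and 328 in knockdown 2 (log2 fold change 0.49, SE 0.06, adjusted p = 4.1e-07). Its CCAAT and CHR elements are among the sequences above.

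Mcm5 and Cdc6 showed the furthest changes among the S-phase genes, Mcm5 from 128 CPM in control 1 and 141 in knockdown 1 to 225 in control 2 and 263 in knockdown 2 (log2 fold change 0.86, SE 0.06, adjusted p = 6.6e-11). Cdc6, which loads the helicase at origins, was 1.81-fold higher, and Rrm2, the regulatory subunit of ribonucleotide reductase, 1.79-fold. The sliding clamp Pcna was 1.33-fold and Mcm2 1.25-fold higher. The member that was not called, the clamp loader subunit Rfc4, lay near the expression threshold with 5.002 and 4.70 CPM against 5.62 and 5.10 CPM (log2 fold change 0.14, adjusted p = 0.483). Of 30 replication-dependent histone genes, whose mRNAs lack poly(A) tails, 1 reached the expression threshold in these poly(A)-selected libraries, and it was not called.

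**Figure D3:**
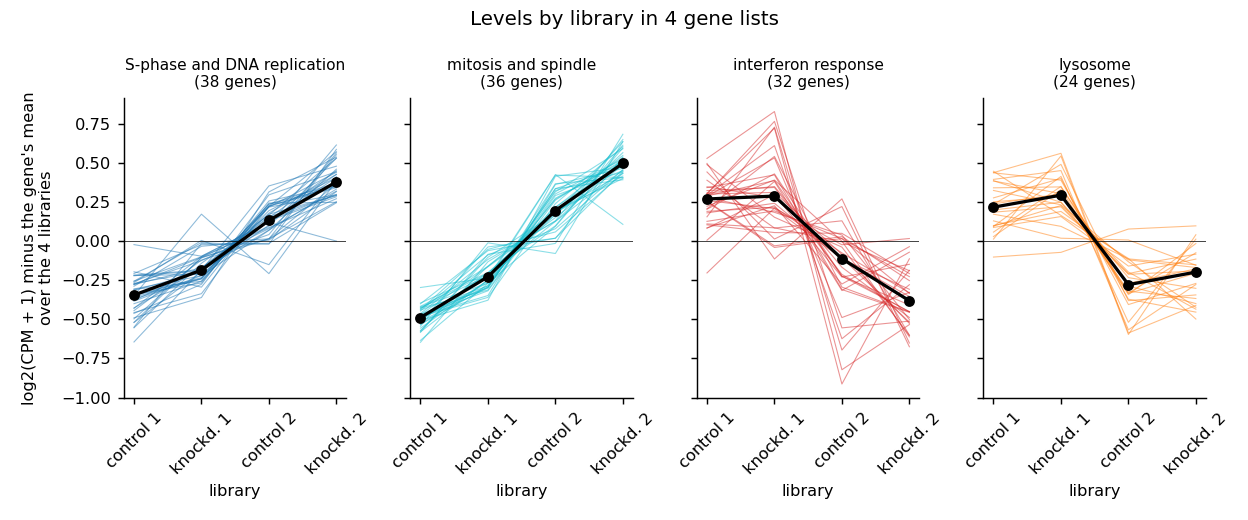
Level of each gene relative to its own mean over the 4 libraries (log2 of CPM plus 1) by library, for 4 gene lists, with the list median in black. The median of the mitosis list went from -0.49 in control 1 to 0.50 in knockdown 2, and that of the interferon list was 0.27 and 0.29 in the libraries numbered 1 against -0.11 and -0.38 in those numbered 2.

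Regulators of the G1 phase were split by direction. Of 15 tested, 5 were higher and 4 lower, with a median of -0.06. The higher genes were the pocket protein Rbl1 (1.54-fold), the D-type cyclins Ccnd3 (1.38-fold) and Ccnd1 (1.32-fold), the CDK inhibitor Cdkn2d and E2f4. Ccnd3 overlaps Bysl on the other strand. The 4 lower genes were all CDK inhibitors, namely Cdkn2a (1.24-fold lower, from 502 and 549 CPM to 413 and 432), Cdkn1b (1.13-fold), Cdkn2b and Cdkn1a (1.12-fold, adjusted p = 0.0325). The call of Cdkn1a did not hold under library totals (adjusted p = 0.0717), DESeq2 (0.101) and 3 other settings. Of 21 FoxO and growth arrest genes 11 were lower and 1 was higher (median -0.17). Gas1, named for its induction in arrested fibroblasts, was 1.33-fold lower and the secreted ligand Gas6 1.44-fold lower, while the co-regulator Cited2 was 1.59-fold higher. Among 19 p53 targets 2 were higher (10.5%) and 4 lower (21.1%), with a median of -0.02 (0.01 under library totals). Over all genes tested, 16.2% were higher and 17.4% lower. Mdm2, the p53 ubiquitin ligase, had 4262 to 4851 CPM in the 4 libraries and was not called (adjusted p = 0.166).

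Ribosome biogenesis and MYC target genes were higher in 22 of 27 tested and lower in 0, with a median of 0.29. Myc itself had 85.8 CPM in control 1 and 106 in knockdown 1 against 113 in control 2 and 151 in knockdown 2 (log2 fold change 0.46, SE 0.06, adjusted p = 1.9e-06). Dkc1, the pseudouridine synthase of the box H/ACA particles, was 1.46-fold and nucleolin (Ncl) 1.22-fold higher. Dkc1 overlaps Mpp1 on the other strand. Genes of the cytosolic ribosomal proteins did not follow, with 0 of 30 called higher and 4 lower (median -0.08). Of 12 mitochondrially encoded genes 7 were higher, among them the large ribosomal RNA mt-Rnr2 (1.62-fold), although ribosomal RNA was depleted from these libraries. Another of the 7, mt-Atp6, shares 99.5% of its read-length windows with the copy Gm10925, so its count is uncertain. The mitochondrial share of reads was 0.605% in control 1, 0.757% in control 2, 0.679% in knockdown 1 and 0.687% in knockdown 2. The controls thus differed in that share by more than the knockdowns did. Nuclear genes of the respiratory chain were called higher in 5 of 30 (16.7%) and lower in 1 (3.33%). The shares over all genes tested were 16.2% and 17.4%.

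Apart from the cell cycle, the genes with the furthest change in both pairs that were higher in the libraries numbered 2 included smooth muscle actins and Id genes. Cck, which encodes the peptide cholecystokinin, had 4.02 CPM in control 1, 1.86 in knockdown 1, 17.03 in control 2 and 8.73 in knockdown 2 (log2 fold change 2.14, SE 0.14, adjusted p = 1.3e-11). Actg2, enteric smooth muscle actin, had 5.73 and 4.46 CPM in control 1 and knockdown 1 against 27.8 and 14.3 CPM in control 2 and knockdown 2 (log2 fold change 2.01). Acta2, the smooth muscle alpha-actin that marks myofibroblasts, had 621 and 607 CPM against 1571 and 1190.0 CPM (log2 fold change 1.16, SE 0.08, adjusted p = 6.6e-09). In these genes both libraries numbered 2 lay well above both numbered 1, and control 2 was the highest of the 4. Tagln, the actin-binding protein transgelin, was 3.35-fold higher (adjusted p = 0.00704, and 0.0710 with GC and length offsets), and its region overlaps Pcsk7 on the other strand. Of 18 contractile and SRF target genes 8 were higher and 1, Zyx, lower, with a median of 0.16. Myl9, a myosin light chain singled out after its values were seen, had 28.2 and 15.4 CPM against 83.9 and 25.5 CPM and missed the threshold (log2 fold change 1.19, SE 0.30, adjusted p = 0.122), with control 1 above knockdown 2. Actg1, whose CArG box is shown above, changed little, from 932 and 982 CPM to 1029 and 1134 CPM (log2 fold change 0.18, SE 0.06, adjusted p = 0.0309). Srf itself was not called (log2 fold change 0.04). Of 16 YAP and TAZ targets 5 were higher and 1 lower, the median being 0.06.

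Id1, an inhibitor of DNA binding by bHLH factors, had 67.4 CPM in control 1, 64.6 in knockdown 1, 148 in control 2 and 145 in knockdown 2 (log2 fold change 1.15, SE 0.06, adjusted p = 5.8e-13). Its relatives Id2 (2.65-fold) and Id4 (2.23-fold) were higher as well. In all 3 the libraries split by number with no overlap. Cyp26b1, which breaks down retinoic acid, was 2.50-fold and the matrix ligand nephronectin (Npnt) 3.32-fold higher. Irf5, an interferon regulatory factor that overlaps Tnpo3 on the other strand, was 2.49-fold higher.

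**Figure D4:**
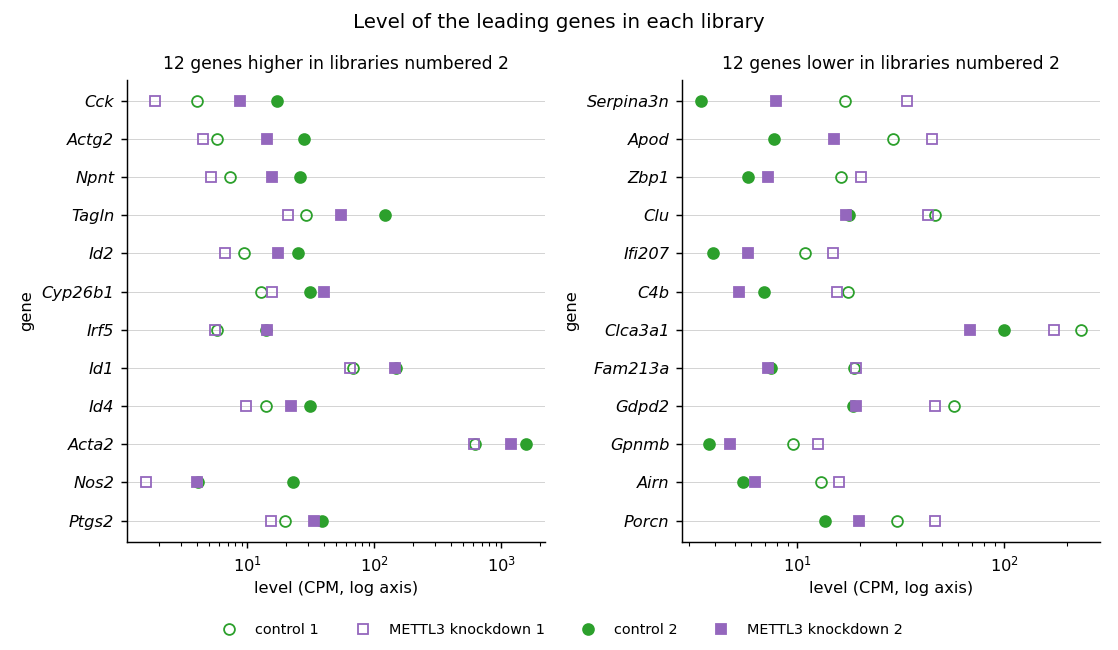
Level (CPM, log axis) of the 12 called genes in each direction with the furthest change in both pairs, in each library. Filled symbols are libraries numbered 2 and open symbols those numbered 1, and in Nos2 knockdown 2, at 3.99 CPM, lay below control 1, at 4.07 CPM.

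Inflammatory genes did not move as a block. Cytokine and NF-kB genes were higher in 10 of 19 tested and lower in 2, with a median of 0.21. Ptgs2, the inducible cyclooxygenase, had 19.7 and 15.2 CPM in control 1 and knockdown 1 against 38.8 and 33.7 CPM in control 2 and knockdown 2 (log2 fold change 1.06, adjusted p = 4.4e-10). The chemokine Ccl2 was 1.55-fold higher. Nos2, inducible nitric oxide synthase, had 4.07 and 1.59 CPM against 23.1 and 3.99 CPM, so that control 2 stood apart and the libraries overlapped by number (log2 fold change 2.12, SE 0.24, adjusted p = 0.000218).

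The interferon response moved the other way. Of 32 interferon-stimulated genes tested, from a list of 40, 29 were lower in the libraries numbered 2 and 0 higher, with a median of -0.57. The median was -0.37 within the controls and -0.72 within the knockdowns, and the difference between the pairs could not be tested. Stat2 had 149.8 CPM in control 1, 187 in knockdown 1, 78.9 in control 2 and 100.5 in knockdown 2 (log2 fold change -0.91, SE 0.06, adjusted p = 2.2e-11). Zbp1, a sensor of Z-form nucleic acids, had 16.2 and 20.2 CPM in control 1 and knockdown 1 against 5.76 and 7.26 CPM in control 2 and knockdown 2 (log2 fold change -1.49). Both genes were separated by number with no overlap. The antiviral effector Ifit3 was 2.16-fold, the synthetase Oas2 2.23-fold and the ubiquitin-like Isg15 1.57-fold lower. Ifit1, Ifit2 and Ddx58 were not called, with log2 fold changes of -0.63, -0.01 and -0.16. Ifit1 had 30.1 and 33.9 CPM in control 1 and knockdown 1 against 25.6 and 16.4 CPM.

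Of 14 genes of MHC class I presentation 10 were lower and 1 was higher (median -0.31). Nlrc5, the transactivator of class I genes, was 2.35-fold lower, the peptide transporter subunit Tap1 1.48-fold and B2m, the invariant light chain, 1.26-fold lower. The class I heavy chain H2-K1 was 1.17-fold higher and H2-D1 was not called (adjusted p = 0.0535). Of 6 complement genes 5 were lower and 0 higher (median -0.59). C3, the central component, had 3395 and 2465 CPM in control 1 and knockdown 1 against 2448 and 1846 CPM in control 2 and knockdown 2 (log2 fold change -0.44, SE 0.06, adjusted p = 3.5e-06). C4b was 2.73-fold lower and C1ra 1.42-fold lower. In C4b 16.3% and in C1ra 35.7% of read-length windows also match a near copy (C4a and C1rb), so their counts are uncertain.

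Of 12 acute phase and metallothionein genes 8 were lower and 0 higher (median -0.34). Saa3, an acute phase protein, had 361 and 386 CPM in control 1 and knockdown 1 against 178 and 173 CPM in control 2 and knockdown 2 (log2 fold change -1.09, SE 0.06, adjusted p = 2.3e-12). Haptoglobin (Hp) was 2.18-fold and the metal-binding Mt1 1.97-fold lower, while lipocalin Lcn2 was not called (adjusted p = 0.116). The furthest fold of all, in Serpina3n, a serine protease inhibitor, came from 17.02 CPM in control 1 and 33.96 in knockdown 1 against 3.43 in control 2 and 7.94 in knockdown 2 (log2 fold change -2.18, SE 0.11, adjusted p = 7.8e-14). The lipocalin Apod was 3.31-fold, the chaperone clusterin (Clu) 2.54-fold, the interferon-inducible Ifi207 2.67-fold and Porcn, the acyltransferase that lipidates WNT proteins, 2.28-fold lower. Airn, the long non-coding RNA antisense to Igf2r, was 2.47-fold lower. Gdpd2, Fam213a, Clca3a1 and the melanosomal glycoprotein Gpnmb completed the 12 genes, at 2.45-fold to 2.71-fold lower, with 7.8% of windows of Clca3a1 shared with a near copy.

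Lysosomal genes were lower in the libraries numbered 2. Of 24 tested, 22 were called lower and 0 higher, with a median of -0.55 (-0.52 within the controls and -0.51 within the knockdowns). Neu1, the lysosomal sialidase, had 159 CPM in control 1, 173 in knockdown 1, 77.5 in control 2 and 87.7 in knockdown 2 (log2 fold change -1.01, SE 0.06, adjusted p = 4.9e-12). Its protective partner cathepsin A (Ctsa), which overlaps Pltp on the other strand, was 1.77-fold lower. The sphingolipid activator precursor Psap had 2275 and 2354 CPM against 1644 and 1753 CPM in the same order. Lamp1, whose E-box is shown above, had 1434 and 1468 CPM against 1089 and 1105 CPM (log2 fold change -0.40, adjusted p = 1.2e-05). In Neu1, Psap and Lamp1 the libraries were further apart by number than by status. Tfeb, the regulator itself, was not called at 16.5 and 16.9 against 18.8 and 19.1 CPM (adjusted p = 0.124), and neither was the glucuronidase Gusb.

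Collagen genes were mostly lower, and the other matrix genes were called in both directions. Of 17 collagen genes 11 were lower and 1 was higher (median -0.20), and of 26 matrix proteins and remodelling enzymes 12 were lower and 7 higher (median -0.20). Col3a1, of fibrillar collagen type III, had 4299.5 CPM in control 1, 4467 in knockdown 1, 2772 in control 2 and 2968 in knockdown 2 (log2 fold change -0.61, SE 0.06, adjusted p = 2.2e-08). Col1a1, of type I, had 5628 and 5514 against 5146 and 5413 CPM and was not called (adjusted p = 0.367), while Col8a1 was 1.99-fold higher. Col1a2 was called lower (log2 fold change -0.16, adjusted p = 0.0477). That call was lost under library totals (0.106), DESeq2 (0.0593) and GC and length offsets (0.491), among others. The membrane protease Mmp14 had 1016 and 1096 CPM against 492 and 595 CPM (log2 fold change -0.96, adjusted p = 2.2e-11). The gelatinase Mmp2, which MMP14 activates, was 1.70-fold lower and the proteoglycan decorin (Dcn) 1.68-fold lower.

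Of 24 sterol biosynthesis genes 13 were lower and 0 higher (median -0.18), with Ebp 1.52-fold and Insig1 1.45-fold lower. The median of the list was -0.29 within the controls and -0.12 within the knockdowns, a difference that was not tested. Hmgcs1, a synthase of the mevalonate pathway, was not called (log2 fold change -0.01). Of 13 adipocyte markers tested 4 were lower and 0 higher (median -0.11). Perilipin Plin4, which overlaps Hdgfl2 on the other strand, had 165 and 113 CPM in control 1 and knockdown 1 against 63.3 and 54.2 CPM in control 2 and knockdown 2 (log2 fold change -1.22, adjusted p = 3.9e-10). Lipoprotein lipase (Lpl) was 1.74-fold lower, while the fatty acid carrier Fabp4 was not called at 15.9 to 22.2 CPM. Of 18 pro-adipogenic regulators 5 were lower and 1 higher. Cebpa was 1.67-fold lower, and Pparg had 31.9 and 24.7 against 32.1 and 22.7 CPM (adjusted p = 0.660).

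Of 25 listed pre-adipocyte and mesenchymal markers, 20 were tested and 4 stayed under 1 CPM in all 4 libraries. Vim, at 3854 to 4491 CPM, and the pre-adipocyte factor Dlk1, at 3449 to 4392 CPM, were abundant in all 4 libraries. Dlk1 was called higher (log2 fold change 0.20, adjusted p = 0.0182). Of 20 pre-adipocyte and mesenchymal markers tested 8 were lower and 3 higher, with a median of -0.09. Pi16, a marker of adventitial progenitors, had 15.8 and 33.2 CPM against 5.29 and 18.5 CPM (log2 fold change -1.14, adjusted p = 0.000684), with knockdown 2 above control 1. Twist2 was 1.57-fold higher. The summed level of 7 endothelial markers was 3.43 to 5.91 CPM and that of 7 epithelial markers 0.783 to 1.47 CPM, and 0 markers of either list reached the expression threshold. The 8 macrophage markers summed to 26.1 to 42.0 CPM, of which Cd14 alone was tested and was lower (log2 fold change -0.41). The 8 skeletal muscle markers summed to 12.4 to 16.7 CPM, the 8 osteoblast and cartilage markers to 203 to 246 CPM and the 5 mesothelial markers to 16.9 to 38.6 CPM. In the osteoblast and cartilage list, Sox9 had 159 to 199 CPM and Runx2 43.3 to 46.8 CPM. None of the tested members of these last 3 lists was called. In bulk RNA, fewer cells of a type and less RNA per cell cannot be told apart.

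Growth factor and receptor genes were split, with 8 of 26 higher and 4 lower (median 0.00, and -0.05 at a mean CPM of at least 20). Igfbp7, which overlaps Polr2b on the other strand, was 1.70-fold higher and the keratinocyte growth factor Fgf7 1.56-fold higher. Igfbp4, singled out after its values were seen, had 69.1 and 126 CPM against 20.5 and 60.5 CPM and narrowly missed the threshold (log2 fold change -1.38, SE 0.23, adjusted p = 0.0515). Of 11 WNT pathway genes 4 were lower and 0 higher, and 1 of 5 proliferin genes, Prl2c2, was tested and higher (log2 fold change 0.25, DESeq2 adjusted p = 0.0956), with 65.9% of its windows shared with near copies. Of 27 immediate early genes 9 were higher and 5 lower. Fos had 142 CPM in control 1, 64.8 in knockdown 1, 94.2 in control 2 and 30.3 in knockdown 2 (log2 fold change -0.83, adjusted p = 0.00132). Dusp1, a MAP kinase phosphatase that overlaps Ergic1 on the other strand, was 1.48-fold higher. In Fos the knockdowns lay below the controls at either number, and control 2 lay above knockdown 1.

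Genes of the NRF2 and glutathione list moved in both directions, with 9 of 21 higher and 7 lower (median 0.08). The cystine transporter Slc7a11 was 1.31-fold higher while heme oxygenase Hmox1 was 1.67-fold and ferritin heavy chain Fth1 1.45-fold lower. ATF4 target genes were higher in 6 of 24 and lower in 3, ER chaperones higher in 0 of 19 and lower in 1, and glycolysis and HIF1 targets higher in 2 of 22 and lower in 4. Of 6 nuclear long non-coding RNAs and snoRNA hosts tested, 3 were lower. Neat1, the scaffold of paraspeckles, had 296 and 277 CPM against 141 and 144 CPM (log2 fold change -1.01, SE 0.06, adjusted p = 5.6e-12), and Malat1 was 1.44-fold lower. Of 19 genes of the N6-methyladenosine machinery 2 were higher and 2 lower (10.5% each, below the shares of all genes tested), with a median of 0.09. Igf2bp2, a reader, was 1.22-fold lower and Fto, the eraser, was not called (136 to 148 CPM, adjusted p = 0.229).

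**Figure D5:**
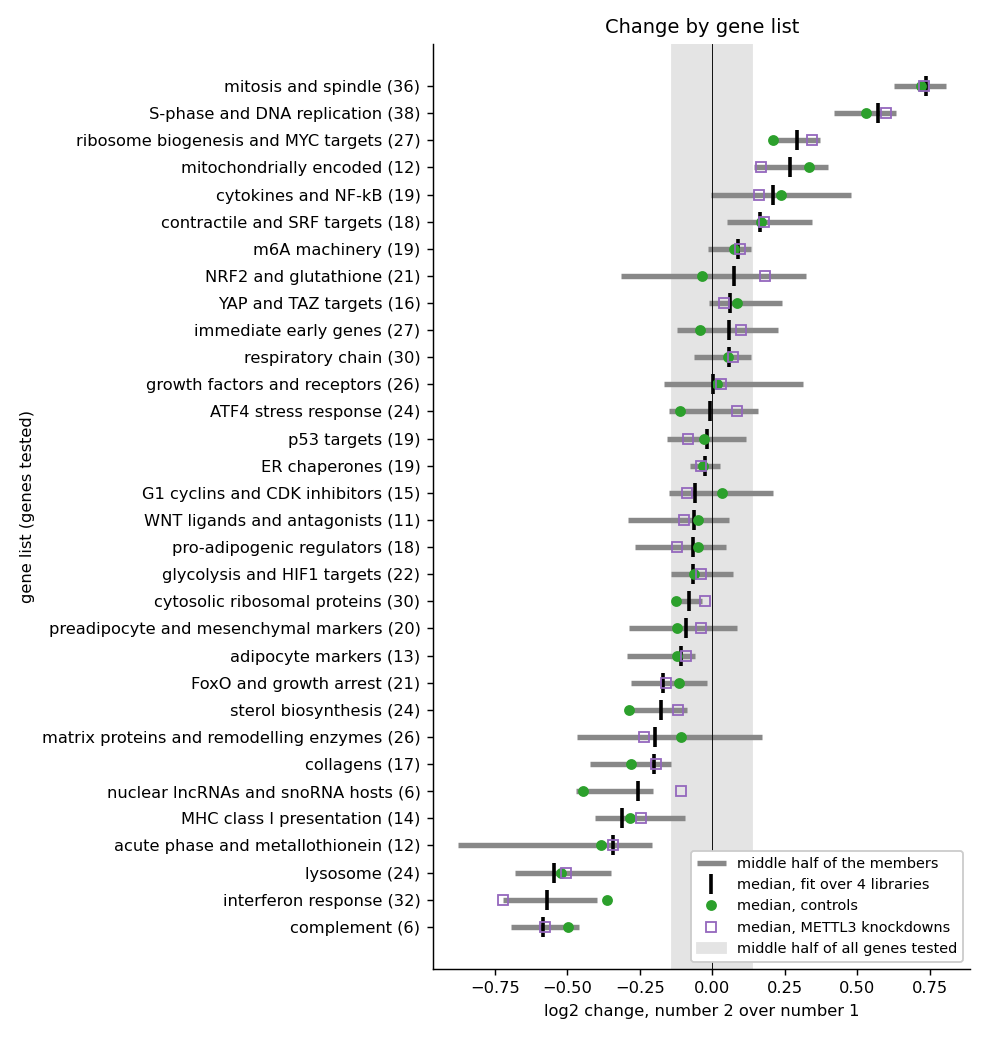
Log2 change, number 2 over number 1, for each gene list (genes tested in parentheses), with the median of the fit, the interquartile range of the members and the medians within the controls and within the knockdowns. The mitosis list stood highest at 0.74 and the complement list lowest at -0.59, and the grey band holds the interquartile range of all genes tested.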

How the data were processed

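Poly(A)-selected, ribosomal RNA-depleted RNA was sequenced as single reads of 101 bases with a TruSeq RNA v2 kit, which does not mark strand, per the labels' protocols. The deposited tables hold, as the authors' output, a raw read count for every gene. An RPKM value made by the authors stands beside each deposited count and was used only to recover relative gene length. Per the submitters' processing notes TopHat2 2.0.9, bedtools and mm10 were involved, in roles not stated. Whether counting used strand is not known from them. Symbols for 35449 of 37315 entries came from GENCODE.

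Counts were tested with edgeR 4.0.16 (R 4.3.3; TMM, robust quasi-likelihood, status plus number, two-sided, Benjamini-Hochberg over 10047 genes, adjusted p under 0.05), after a check on simulated data. Every adjusted p is from that fit unless another tool is named. Pair changes use CPM plus 1. DESeq2 1.42.0, limma 3.58.1 (voom) and other scalings, filters and left-out libraries were alternatives. The gene lists and the comparison itself were chosen with earlier results of these data known. Named genes are the 12 called genes in each direction whose smaller pair change was largest and, in each list, the 3 highest and the 2 with the smallest adjusted p. Other list members are given by value. The FTO libraries were left out.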

Additional observations from a re-analysis of the deposited data

Results flagged for a closer look

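Among the gene lists with at least 3 genes tested, there were 4 in which the median log2 change had opposite signs in the controls and in the knockdowns, and these differences were not tested, because the model with separate changes leaves no residual degrees of freedom. For the G1 cyclins and CDK inhibitors the median was 0.03 in the controls and -0.09 in the knockdowns, a difference of -0.12. For the immediate early genes it was -0.04 and 0.10, a difference of 0.14. The ATF4 stress response genes had -0.11 and 0.08, a difference of 0.19. The NRF2 and glutathione genes had -0.04 and 0.18, a difference of 0.22.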

How the results depend on the processing

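Of 122 named genes that were called, 122 kept their call and direction under DESeq2 size factors and under upper quartile scaling, 121 under limma-voom, 119 under library totals, no filter, filterByExpr, and GC and length offsets, and 111 under DESeq2. At a mean CPM of at least 20, 105 kept it, 1 lost it and the others were not tested. DESeq2 called 729 genes higher and 996 lower. Without the knockdown block, 0 were higher and 0 lower by edgeR (800 and 833 at an unadjusted p of 0.05), with the status then part of the residual. Leaving out 1 library needs that block dropped and assumes that the lone library varies like the others, and 0 were higher and 0 lower in each of the 4 fits (295 to 847 higher and 363 to 1016 lower at an unadjusted p of 0.05). At a mean CPM of at least 20, 3 genes were 2-fold higher and 9 genes 2-fold lower in both pairs. For Mettl3, knockdown over control, the log2 fold change was -1.91 with no replicate block (adjusted p = 0.197), against -1.91 with the replicate block (1.4e-11), and -2.04 to -1.80 with 1 library left out (0.0940 to 0.760). The number, taken from the labels, pairs 2 controls with 2 knockdowns. The labels do not say that libraries of the same number belong together. The correlation of the changes (0.801) was computed with that pairing and is not its basis. Medians that turned sign were p53 targets (0.014) and ER chaperones (0.0096) under library totals, and growth factors under DESeq2 size factors (-0.0051), at a mean CPM of at least 20 (-0.051) and with GC and length offsets (-0.025). With 1 library left out, medians ran from -0.17 to 0.086 for glycolysis, -0.12 to 0.082 for ER chaperones, -0.14 to 0.0047 for pre-adipocyte markers, -0.18 to 0.069 for WNT genes, -0.013 to 0.16 for the respiratory chain and -0.69 to 0.19 for long non-coding RNAs. Among genes, Fosb ran from -1.96 to 0.13, Ero1l from -0.59 to 0.047 and Zfas1 from -0.68 to 0.20. Without the block, number and status are partly mixed in these fits, so the ranges also hold the status effect. With the block, the log2 fold change of knockdown over control was -1.65 for Fosb, 0.57 for Ero1l and 0.73 for Zfas1. Within the controls and the knockdowns, number 2 over 1 was -0.83 and -0.91 for Fosb. It was -0.27 and -0.26 for Ero1l, and -0.35 and -0.06 for Zfas1. How far status accounts for each range was not tested.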

Other observations

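Targets of BMP and SMAD signalling outside the gene lists were looked at after the Id genes had been seen, and they carry no independent support. Id3 had 62.3 CPM in control 1, 50.2 in knockdown 1, 93.7 in control 2 and 95.4 in knockdown 2 (log2 fold change 0.76, adjusted p = 3.5e-07). The inhibitory SMADs, which damp the pathway that induces them, were higher too, with Smad6 at 47.0 and 40.2 against 74.5 and 61.0 CPM (log2 fold change 0.63) and Smad7 at 10.9 and 13.7 against 16.6 and 22.6 CPM (log2 fold change 0.67). In these 3 genes both libraries numbered 2 lay above both numbered 1. Atoh8 was higher within each status, at 68.3 against 127 CPM in the controls and 36.4 against 68.3 CPM in the knockdowns. The BMP antagonist Grem1 was also higher (log2 fold change 0.18, adjusted p = 0.0219), and the receptors Bmpr1a and Bmpr2 were not called (adjusted p = 0.325 and 0.483).

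Annotated biotypes gave the following counts, with no test of a difference between them. Of 19 antisense genes tested 9 were lower and 1 was higher, and of 23 long intergenic RNAs 9 were lower and 1 was higher, while 9871 protein-coding genes gave 1699 lower and 1609 higher. Without strand, reads of an antisense gene and of its partner cannot be told apart.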
